A study of Mus musculus with 220 samples.

Results

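Livers of female mice with a C57BLKS/J mother were compared with livers of female mice with a C57BL/6J mother. The maternal strain given by the labels chose the mice, 2 of C57BLKS/J and 2 of C57BL/6J, or 4 of the 220 mice and 2 of the 96 maternal strains of the Ath-HMDP, a panel bred to study atherosclerosis. Every mouse was the offspring of a C57BL/6J father that passed on the human APOE-Leiden and CETP transgenes, and mice with both transgenes were kept. C57BLKS/J mice therefore carried 1 maternal C57BLKS/J and 1 paternal C57BL/6J set of autosomes, whereas C57BL/6J mice carried C57BL/6J chromosomes from both parents. Both groups ate chow for 8 weeks and then a Western diet with cholesterol for 16 weeks, and livers were taken at 24 weeks of age after a short fast. Neither promoters nor copy numbers of the transgenes are given in the labels or methods used here, and C57BLKS/J mice are F1 hybrids, so they are not the inbred strain itself.

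C57BLKS/J is an inbred strain related to C57BL/6J that also carries alleles of DBA/2J and of other strains. It is known for severe diabetes when it carries the db mutation of the leptin receptor, which in C57BL/6J gives a milder and often transient disease; no such mutation is named in the labels here. In the liver, SREBP transcription factors switch on the genes of cholesterol and fatty acid synthesis, and insulin drives fatty acid synthesis and holds back genes such as Igfbp1. Bile acid synthesis, lipoprotein secretion, detoxification by cytochromes P450 and the resident macrophages, called Kupffer cells, are the other liver functions described.

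Each mouse was measured on 1 array, and values are log2 signals after robust multi-array averaging (RMA), a scale on which a difference of 1 is a 2-fold change and the median probe set had a mean of 3.46. The 2 C57BLKS/J mice differed from each other by a root mean square (RMS) of 0.23 over 17097 genes and the 2 C57BL/6J mice also by 0.23, against a median of 0.24 (0.19 to 0.48) in the 51 strains with 2 mice. Between C57BLKS/J and C57BL/6J mice the RMS difference was 0.35 to 0.41. The excess of 3' over 5' signal, a measure of RNA degradation, was 0.63 and 0.75 for Gapdh in the C57BLKS/J mice and 0.49 and 0.62 in the C57BL/6J mice, and for Actb 1.00 and 1.07 in C57BLKS/J and 0.87 and 0.95 in C57BL/6J. All of these lie within the range of the series (0.06 to 0.88 for Gapdh and 0.29 to 1.65 for Actb), and their part in the differences was not tested. The 2 mice of a strain have consecutive label numbers, 911 and 912 for C57BLKS/J and 846 and 847 for C57BL/6J, and the labels give no litter, cage or collection day, so that maternal strain and anything else shared by the 2 mice of a strain cannot be told apart.

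At an adjusted p under 0.05 in limma, 1796 of 45037 probe sets (3.99%) differed, 935 higher and 861 lower in C57BLKS/J. By gene, 1018 of 17097 (5.95%) were called, of which 529 (3.09% of all genes) were higher and 489 (2.86%) were lower. The median absolute difference of the called genes was 0.71 on the log2 scale, against 0.15 over all genes, and 250 of them differed by 1 or more. The 2 mice of one strain lay wholly above or below the 2 mice of the other in all 1018 called genes and in 50.5% of all genes, so with 2 mice a side a lack of overlap alone says little. The calls rest on a spread that was estimated from 211 mice of 87 strains. With a single mouse left out they dropped to 177 genes when C57BLKS/J mouse 1 was left out, 328 for C57BLKS/J mouse 2, 100 for C57BL/6J mouse 1 and 480 for C57BL/6J mouse 2.

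The largest rise was that of H2-Ea, which encodes the alpha subunit of the E antigen-presenting molecule and which mice of the b haplotype of the major histocompatibility complex, C57BL/6J among them, are known not to transcribe. It was 10.89 and 10.47 in the C57BLKS/J mice and 2.88 and 2.72 in the C57BL/6J mice, a difference of 7.88 ± 0.62 (SE, adjusted p = 1.42e-20, limma). Both C57BLKS/J mice were near the top of the series, where their mean had rank 4 of 87 strains, and the C57BL/6J mean had rank 85. Spink1, a secreted inhibitor of trypsin, was 6.49 and 6.42 in C57BLKS/J, against 2.61 and 3.18 in C57BL/6J (difference 3.56 ± 0.73, adjusted p = 0.00101). Crym, a crystallin that binds thyroid hormone in the cytosol, was 6.89 and 7.16 in C57BLKS/J, against 4.06 and 3.84 in C57BL/6J (3.08 ± 0.36, adjusted p = 5.2e-11). Without any 1 of the 4 mice H2-Ea and Crym kept their calls, whereas Spink1 lost it without C57BL/6J mouse 1 (adjusted p = 0.0675).

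Further large rises were seen in genes of varied function. S100g, the vitamin D-dependent calcium-binding protein calbindin-D9k, was 7.26 and 7.47 in C57BLKS/J and 4.35 and 4.52 in C57BL/6J (2.93 ± 0.72, adjusted p = 0.00781). The transcription factor Zbtb16 was 7.90 and 8.11 in C57BLKS/J and 5.58 and 4.95 in C57BL/6J (2.74 ± 0.64, adjusted p = 0.00472), and no BXD strain was nearer to C57BLKS/J than to C57BL/6J. Ccn2, a matricellular protein also called connective tissue growth factor, was 9.17 and 9.32 in C57BLKS/J and 6.38 and 7.22 in C57BL/6J (2.45 ± 0.48, adjusted p = 4.99e-04). In all 3 genes both C57BLKS/J mice lay above both C57BL/6J mice, as in every called gene that rose. The remaining 14 of the 20 largest rises, between 1.76 and 2.60, were in Gipc2, D17H6S56E-5, Syngr1, Wfdc18, Cxcl14 (a chemokine), Mgp (matrix Gla protein, an inhibitor of calcification), the elongase Elovl7, Ptgds (prostaglandin D synthase), Rragd, Serpinb6b, Mmp7 (matrilysin), Slpi (an inhibitor of leukocyte proteases), Col4a3 and Epdr1. Leaving out 1 mouse ended the call of S100g (C57BLKS/J mouse 1 or 2 or C57BL/6J mouse 1, adjusted p up to 0.138), of Zbtb16 (C57BLKS/J mouse 1 or 2 or C57BL/6J mouse 2, up to 0.0789) and of Ccn2 (C57BL/6J mouse 1, 0.0955).

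The largest fall was that of Cyp3a41a, a cytochrome P450 that is predominant in female liver. It was 7.80 and 6.67 in the C57BLKS/J mice and 11.35 and 11.49 in the C57BL/6J mice, a difference of -4.19 ± 1.02 (adjusted p = 0.00704). The next was Acot3, an acyl-CoA thioesterase of peroxisomes, at 5.69 and 5.70 in C57BLKS/J and 8.93 and 9.08 in C57BL/6J (-3.31 ± 0.83, adjusted p = 0.00877). Slc22a26, a member of the organic anion transporter family, was 4.90 and 4.28 in C57BLKS/J and 7.77 and 7.32 in C57BL/6J (-2.96 ± 0.71, adjusted p = 0.00583). C57BLKS/J was clearly lower in both mice for each of these genes, although its rank was 77, 83 and 76 of 87, so that 4 or more strains had still lower means. The other 17 of the 20 largest falls, between -2.81 and -1.80, included Cux2, a female-specific transcription factor of the liver, Dct, an enzyme of melanin synthesis, Dntt, the template-independent DNA polymerase of lymphocytes, Eci3, an enoyl-CoA isomerase, Clec4f, a lectin of Kupffer cells, and the lipid genes Sqle, Elovl6 and Fitm1. Cyp3a41a lost its call without C57BLKS/J mouse 2 or either C57BL/6J mouse (adjusted p up to 0.128), Acot3 without any 1 of the 4 mice (0.0658 to 0.115) and Slc22a26 without C57BLKS/J mouse 2 or C57BL/6J mouse 1 (up to 0.15).

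**Figure D1:**
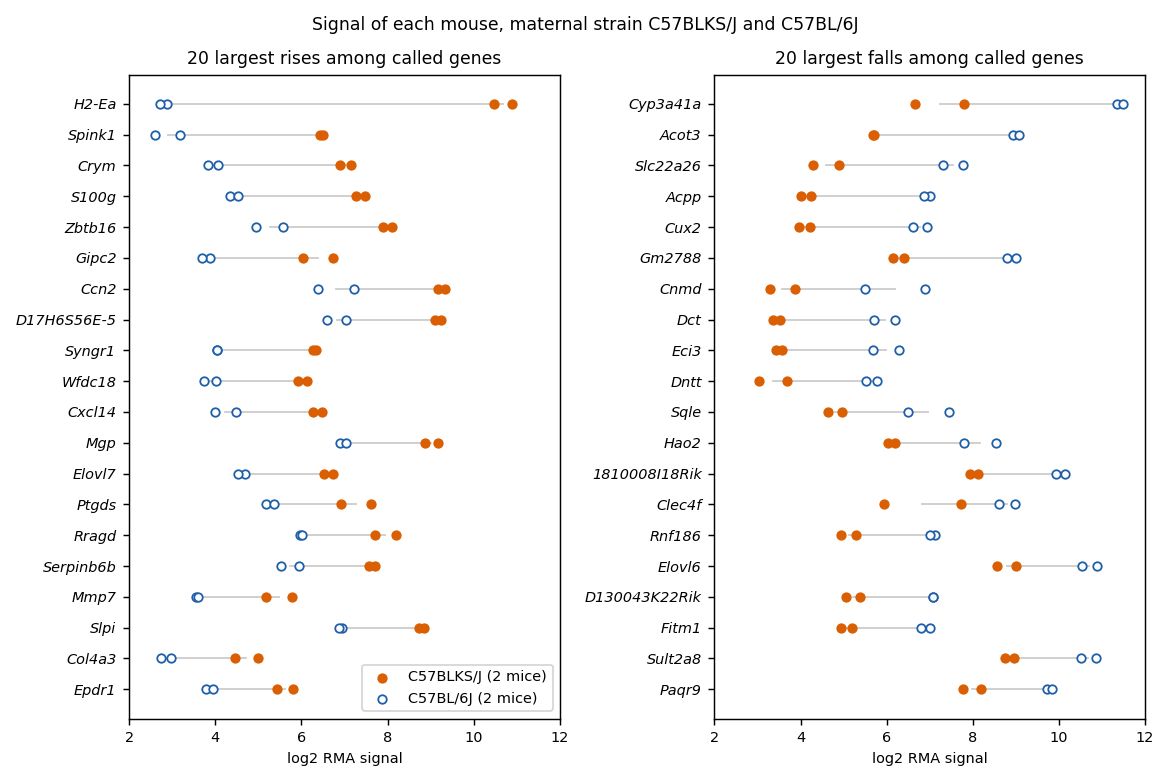
Log2 RMA signal (horizontal axis) of the 20 genes with the largest rises (left) and the 20 with the largest falls (right) among the called genes, with 1 point per mouse, filled for C57BLKS/J and open for C57BL/6J, and a grey line between the strain means. The 2 strains do not overlap in any of the 40 genes, which is also so in all 1018 called genes and in 50.5% of all genes. H2-Ea is the widest apart, at 10.89 and 10.47 in C57BLKS/J against 2.88 and 2.72 in C57BL/6J.

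Cholesterol synthesis held more genes called lower than the 2.86% of all genes. Of 20 measured genes, 8 fell and 0 rose, and all 20 differences were below 0, with a median of -0.93 against 0.00179 over all genes. Sqle (squalene epoxidase), which catalyses a rate-controlling step of the pathway, was 4.95 and 4.64 in the C57BLKS/J mice and 6.48 and 7.44 in the C57BL/6J mice (-2.17 ± 0.64, adjusted p = 0.0296). Stard4, a cytosolic carrier of cholesterol, was 6.97 and 7.14 in C57BLKS/J and 8.69 and 8.73 in C57BL/6J (-1.65 ± 0.33, adjusted p = 5.81e-04). Insig1, the sterol-regulated protein that retains the SREBP complex in the endoplasmic reticulum, was 7.84 and 8.41 in C57BLKS/J and 9.44 and 9.54 in C57BL/6J (-1.37 ± 0.40, adjusted p = 0.0313). In each of these genes, as in every called gene that fell, both C57BLKS/J mice lay below both C57BL/6J mice. Lss (lanosterol synthase, -1.25), Sc5d (-0.98), Hsd17b7 (-0.95), Fdft1 (squalene synthase, -0.91) and Ebp (-0.62) also fell. The other 12 members did not pass the test, Fdps (-1.71, adjusted p = 0.0957), Cyp51 (-1.37, 0.0704) and Idi1 (-1.31, 0.0504) with large differences and Mvk (-0.10, 0.906) and Hmgcs1 (-0.19, 0.795) with small ones. The mean score of the list, that is the mean of the members' log2 values after centring each gene over all mice, was -0.65 and -0.24 in the C57BLKS/J mice and 0.40 and 0.63 in the C57BL/6J mice, which gave C57BLKS/J rank 81 and C57BL/6J rank 5 of the 87 strains. With 1 mouse left out, in the order C57BLKS/J mouse 1, C57BLKS/J mouse 2, C57BL/6J mouse 1 and C57BL/6J mouse 2, the number called lower was 1, 5, 1 and 3, and Stard4 alone kept its call in all 4 fits.

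The promoters of the sterol genes are shown here, from the RefSeq annotation of the C57BL/6J reference genome (GRCm38.p6). Of the 20 measured genes, 16 matched the promoter table, 5 of them among the called ones, and the 250 bases before the annotated start were searched on both strands. The letters CCAAT, the core of the site of the factor NF-Y, with which SREBP is known to act, were found in 16 of the 20 promoters of these genes (80%), against 33.8% of all 32851 promoters of that length. By gene, at least 1 promoter held them in all 16 sterol genes and in 10133 of all 27025 genes. Called and uncalled sterol genes alike held them, so they do not set the called ones apart. Among the genes of fatty acid synthesis, described next, 10 of 17 promoters (58.8%) held them, or 10 of 15 genes, and 3 of the 6 called ones. CCAAT was chosen after other motifs had been tried. The letters TCACNCCAC, a form of the sterol regulatory element, were in 1 of the 16 genes (Hmgcs1, which was not called) and in 1.05% of all promoters. The sequences of 3 called genes are given 5′ to 3′ in the direction of the gene, with CCAAT, or ATTGG for the other strand, in capitals: Lss at chr10:76531355-76531604 (+ strand), Hsd17b7 at chr1:169969206-169969455 (- strand) and Sc5d at chr9:42264301-42264550 (- strand).
Lss: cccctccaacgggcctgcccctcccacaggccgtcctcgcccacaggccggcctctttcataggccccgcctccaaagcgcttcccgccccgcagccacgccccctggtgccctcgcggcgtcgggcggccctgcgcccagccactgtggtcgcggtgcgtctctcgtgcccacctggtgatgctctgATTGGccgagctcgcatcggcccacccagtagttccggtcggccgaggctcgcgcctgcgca
Hsd17b7: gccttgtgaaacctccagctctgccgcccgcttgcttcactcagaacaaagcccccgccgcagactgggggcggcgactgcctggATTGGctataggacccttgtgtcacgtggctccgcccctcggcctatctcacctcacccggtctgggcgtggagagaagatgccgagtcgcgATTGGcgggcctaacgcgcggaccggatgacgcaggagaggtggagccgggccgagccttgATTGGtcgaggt
Sc5d: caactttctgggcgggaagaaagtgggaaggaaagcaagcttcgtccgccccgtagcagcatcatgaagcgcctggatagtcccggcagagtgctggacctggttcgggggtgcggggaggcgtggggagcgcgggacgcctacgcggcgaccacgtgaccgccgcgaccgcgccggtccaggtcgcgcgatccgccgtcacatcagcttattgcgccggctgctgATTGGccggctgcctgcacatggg
Hsd17b7 held 3 matches, and Lss and Sc5d held 1 each. A match of letters is a description of the reference sequence and no measurement of binding. Its part in the differences was not tested.

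Fatty acid synthesis also held several genes called lower. Of 19 measured genes 7 fell and 0 rose, with a median difference of -1.20, where 2.86% of all genes were called lower. Elovl6, the elongase that makes stearate from palmitate, was 8.57 and 9.01 in the C57BLKS/J mice and 10.52 and 10.88 in the C57BL/6J mice (-1.91 ± 0.56, adjusted p = 0.0293). Acly (ATP citrate lyase), which supplies cytosolic acetyl-CoA, was 9.51 and 9.97 in C57BLKS/J and 11.25 and 11.38 in C57BL/6J (-1.58 ± 0.47, adjusted p = 0.0322). Me1 (malic enzyme), a source of NADPH, was 8.76 and 9.53 in C57BLKS/J and 10.50 and 10.86 in C57BL/6J (-1.53 ± 0.42, adjusted p = 0.0177). The groups did not overlap in these genes, as in all called genes, and C57BLKS/J mouse 1 was the lowest of the 4 mice in each. The desaturases Fads2 (-1.20, adjusted p = 0.002) and Fads1 (-0.89, 0.0166), the acyl-CoA synthetase Acsl3 (-1.29, 0.00129) and the elongase Elovl5 (-0.44, 0.0298) fell too. Of the 12 members that did not pass, Pnpla3 (-2.52, 0.0724), Acacb (-1.57, 0.0867), Fasn (fatty acid synthase, -1.40, 0.1) and Acss2 (-1.50, 0.131) were all below C57BL/6J, whereas Scd1 was nearly equal (-0.09, 0.786) and Lpin1 was above it (0.73, 0.581). C57BL/6J had rank 8 and C57BLKS/J rank 65 for the mean score of this list. The number called lower with 1 mouse left out, in the same order of mice, was 0, 5, 1 and 2.

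**Figure D2:**
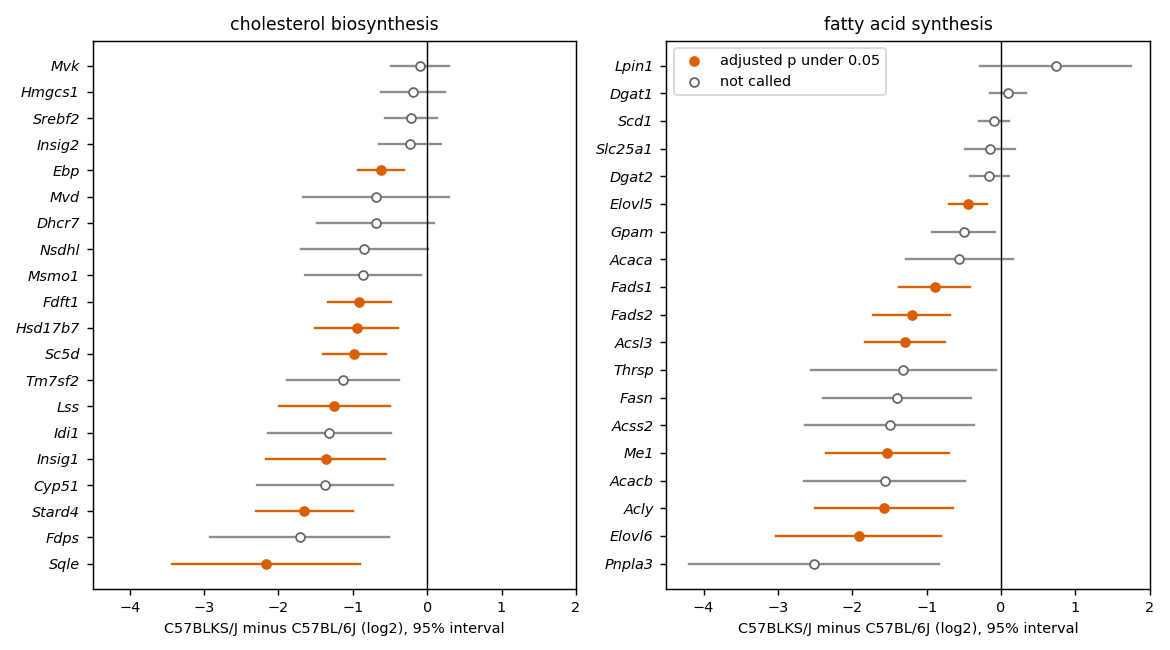
Difference between C57BLKS/J and C57BL/6J (log2, horizontal axis) for every measured gene of cholesterol biosynthesis (left, 20 genes) and fatty acid synthesis (right, 19 genes), with 95% intervals from the limma fit. Filled points passed an adjusted p of 0.05 (8 and 7 genes), and the differences run from -2.17 for Sqle to -0.10 for Mvk on the left and from -2.52 for Pnpla3 to 0.73 for Lpin1 on the right.

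Fatty acid oxidation and lipid storage showed fewer calls, where 2.86% of all genes were called lower and 3.09% higher. Of 23 PPARa targets and oxidation genes 3 fell and 0 rose (median -0.26), and beside Acot3 these were the abundant genes Fabp1, the liver fatty acid-binding protein (12.55 and 12.62 in C57BLKS/J, 12.93 and 13.01 in C57BL/6J; -0.38 ± 0.09, adjusted p = 0.00265), and Acaa1b, a peroxisomal thiolase (-0.37, adjusted p = 0.00472). C57BLKS/J was at rank 86 of 87 for both genes, and at rank 86 for the mean score of the list, where C57BL/6J had rank 40. Ppara itself did not pass (-0.63, adjusted p = 0.063). Of 16 lipid droplet genes 2 fell: G0s2, an inhibitor of the triglyceride lipase ATGL (8.57 and 8.39 in C57BLKS/J, 9.99 and 9.86 in C57BL/6J; -1.44 ± 0.35, adjusted p = 0.00695), and Fitm1, which promotes droplet formation (4.94 and 5.20 in C57BLKS/J, 6.80 and 7.01 in C57BL/6J; -1.84 ± 0.51, adjusted p = 0.0192). The perilipins Plin4 (1.58) and Plin5 (0.82) were above C57BL/6J without passing the test. When 1 mouse was left out, 1 oxidation gene was called in each of the 4 fits, and of the lipid droplet genes 0, 0, 0 and 1.

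Some bile acid genes fell and a few lipoprotein genes rose, where 2.86% of all genes were called lower and 3.09% higher. Of 21 genes of bile acid synthesis and transport 7 were called lower and 0 higher (median -0.41), and 7 of the members that were not called lay above C57BL/6J. Cyp8b1, the sterol 12-hydroxylase that sets the proportion of cholic acid, was 7.76 and 8.55 in the C57BLKS/J mice and 10.10 and 9.52 in the C57BL/6J mice (-1.65 ± 0.38, adjusted p = 0.00381). Akr1d1, a reductase of the same pathway, was 8.55 and 8.49 in C57BLKS/J and 9.75 and 9.54 in C57BL/6J (-1.12 ± 0.24, adjusted p = 0.00212). Slc10a1, the transporter that takes bile acids up from blood (-0.87, 0.0165), Slco2b1 (-0.58, 0.0468), the bile acid receptor Nr1h4 (FXR, -0.57, 0.014) and Slc27a5 (-0.52, 0.0237) also fell, whereas Cyp7a1, the rate-limiting enzyme of the classical pathway, was -1.41 without passing. Omitting 1 mouse in turn left 1, 2, 0 and 4 members lower. Among 23 genes of sterol efflux and lipoproteins 3 rose and 0 fell (median -0.07): Abcg1, a cholesterol exporter of macrophages among other cells (0.90, 0.0212), Angptl4, an inhibitor of lipoprotein lipase (0.89, 0.022), and Lpl, lipoprotein lipase itself (0.69, 0.0459). Each of these 3 lost its call without any 1 of the 4 mice. Mouse Apoe did not pass the test (12.92 and 12.97 in C57BLKS/J, 12.98 and 13.02 in C57BL/6J; -0.05 ± 0.07, adjusted p = 0.853).

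Because C57BLKS/J is studied for diabetes, genes of glucose metabolism and hormone signalling were examined. Over all genes 5.95% were called, and the 2 calls among 25 glucose genes do not set that list apart. Of 25 enzymes and transporters of glucose metabolism 2 fell and 0 rose (median -0.21): Pdk1, a kinase that inactivates pyruvate dehydrogenase (7.92 and 8.27 in C57BLKS/J, 9.11 and 9.0 in C57BL/6J; -0.96 ± 0.29, adjusted p = 0.0392), and Pgm1, phosphoglucomutase (-0.33, 0.0249). The glycolytic Pklr was 8.06 and 8.69 in C57BLKS/J and 9.29 and 9.40 in C57BL/6J without passing (-0.97 ± 0.37, adjusted p = 0.127), and the gluconeogenic gene G6pc (0.17) did not pass either. The probe set used for Pck1 was below the median probe set in both strains, so Pck1 is not described. Of 32 genes of insulin, glucagon and leptin signalling 2 rose and 2 fell (median 0.00461). Igfbp1, a secreted binding protein of insulin-like growth factors that insulin represses, was 11.33 and 11.76 in C57BLKS/J and 10.17 and 10.54 in C57BL/6J (1.19 ± 0.37, adjusted p = 0.043). Ptpn1, a phosphatase that acts on the insulin and leptin pathways, was 8.81 and 8.57 in C57BLKS/J and 7.93 and 8.14 in C57BL/6J (0.65 ± 0.18, adjusted p = 0.0181). Irs1, an adaptor of the insulin receptor, was 7.91 and 7.60 in C57BLKS/J and 8.61 and 8.60 in C57BL/6J (-0.85 ± 0.21, adjusted p = 0.00649). C57BLKS/J had the highest mean of all 87 strains for Ptpn1 and the lowest for Irs1. Both means lay outside the range of the 34 BXD strains, as in 44.4% of the called genes. For Igfbp1 the C57BLKS/J mean (11.548) was barely above the highest BXD mean (11.543). Irs1 lost its call without C57BLKS/J mouse 2 or C57BL/6J mouse 1 (up to 0.152) and Ptpn1 without C57BLKS/J mouse 1 or C57BL/6J mouse 1 (up to 0.323). Klb, a coreceptor of fibroblast growth factors, fell as well (-0.73, adjusted p = 0.0347).

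Lepr, the leptin receptor, did not pass: it was 6.77 and 7.53 in C57BLKS/J and 8.58 and 7.87 in C57BL/6J (-1.08 ± 0.53, adjusted p = 0.314), and C57BL/6J had rank 3 of 87 strains. Socs2, a growth hormone-induced feedback inhibitor, was 7.74 and 7.69 in C57BLKS/J and 9.10 and 9.75 in C57BL/6J (-1.71 ± 0.56, adjusted p = 0.0624). With 1 mouse left out, in the same order, 0, 1, 0 and 1 of the hormone genes were higher and 1, 0, 0 and 2 lower, and 0 of the glucose genes were called; Igfbp1 lost its call without any 1 mouse (adjusted p = 0.0824 to 0.433). Nnt, the mitochondrial transhydrogenase in which C57BL/6J is known to carry a deletion, was 9.43 and 9.36 in C57BLKS/J and 9.21 and 9.01 in C57BL/6J (0.29 ± 0.10, adjusted p = 0.0915). C57BLKS/J had rank 78 and C57BL/6J rank 80 of 87 for Nnt, which puts both near the lower end of the series, while DBA/2J was 0.61 above C57BL/6J (adjusted p = 8.23e-07).

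Among drug-metabolising and sex-biased genes most calls were lower, where 2.86% of all genes were called lower and 3.09% higher. Of 44 cytochromes P450 and their receptors 8 fell and 1 rose (median -0.29), and of 41 conjugating enzymes 9 fell and 1 rose (median -0.23). Cyp2r1, which hydroxylates vitamin D, was 5.23 and 5.84 in the C57BLKS/J mice and 7.10 and 7.24 in the C57BL/6J mice (-1.64 ± 0.29, adjusted p = 1.04e-04), and kept its call in all 4 fits with 1 mouse left out. Cyp2c37 (-1.45), Cyp2b9 (-1.11) and Cyp2c38 (-0.93) were lower, whereas Cyp1b1, an extrahepatic P450, rose (7.37 and 7.10 in C57BLKS/J, 5.34 and 5.98 in C57BL/6J; 1.57 ± 0.41, adjusted p = 0.0119). Short probes cannot separate all members of the Cyp2c, Cyp2b and Cyp3a families, so these values may mix related transcripts. Among the conjugating enzymes Ugt3a1 was 8.18 and 8.12 in C57BLKS/J and 9.45 and 9.21 in C57BL/6J (-1.18 ± 0.23, adjusted p = 3.13e-04), the lowest of the 87 strains, and its neighbour Ugt3a2 also fell (-0.65, adjusted p = 0.00117). The sulfotransferase Sult5a1 (-1.52, 0.0276) and the acetyltransferase Nat1 (-1.16, 0.00704) fell, and Tpmt, which methylates thiopurines, rose (0.86, 8.84e-04). Leaving out 1 mouse, in the same order, left 2, 3, 1 and 2 P450 genes and 2, 3, 2 and 5 conjugating enzymes called lower.

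Of 26 sex-biased and growth hormone-dependent genes 7 fell and 0 rose (median -0.96), where 2.86% of all genes were called lower. Beside Cyp3a41a, Acot3 and Cyp2b9 these included Cux2 (3.97 and 4.23 in C57BLKS/J, 6.94 and 6.62 in C57BL/6J; -2.68 ± 0.83, adjusted p = 0.0416) and Hao2, a peroxisomal oxidase of hydroxy acids (6.04 and 6.18 in C57BLKS/J, 7.79 and 8.53 in C57BL/6J; -2.05 ± 0.54, adjusted p = 0.0135), for which C57BLKS/J had the lowest mean of the 87 strains. Igfals, the growth hormone-dependent subunit that stabilises insulin-like growth factors in blood, was 6.99 and 6.75 in C57BLKS/J and 8.59 and 8.44 in C57BL/6J (-1.65 ± 0.42, adjusted p = 0.00968). The list holds genes of either sex bias and was not split by the direction of the bias. Only 3 of the 26 differences in the list were above 0, so the falls were not limited to a few members. The male-biased Cyp4a12a, at 0.31 without passing (adjusted p = 0.94), was among those 3. C57BLKS/J had rank 80 and C57BL/6J rank 14 for the mean score of this list. With 1 mouse left out the number called lower was 2, 1, 0 and 2.

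Among immune genes, H2-Ea was the only called gene of 12 in the MHC class II list (median 0.34), and the partner chains and cofactors Cd74 (0.58, adjusted p = 0.253), H2-DMb2 (0.54, 0.37), H2-Ab1 (0.45, 0.427) and H2-Eb1 (0.37, 0.616) did not pass. Of 15 class I genes H2-T24 rose (1.17, 0.0232) and H2-Q10 fell (-0.38, 0.0165), and 0 of 36 interferon-response genes were called (median -0.08). Of 30 macrophage and Kupffer cell markers 4 rose and 3 fell, with a median of 0.49. Of all genes, 3.09% were called higher and 2.86% lower. Gpnmb, a glycoprotein of lipid-laden macrophages, was 11.24 and 11.12 in C57BLKS/J and 9.49 and 9.85 in C57BL/6J (1.51 ± 0.45, adjusted p = 0.0334), and the endotoxin coreceptor Cd14 was 9.50 and 9.39 in C57BLKS/J and 7.54 and 7.84 in C57BL/6J (1.76 ± 0.46, adjusted p = 0.0139). Itgax (CD11c, 1.41, 0.0215) and Lgals3 (galectin-3, 0.98, 0.0293) rose with them. The genes that fell are markers of resident Kupffer cells: Clec4f was 7.72 and 5.93 in C57BLKS/J and 8.98 and 8.60 in C57BL/6J (-1.96 ± 0.50, adjusted p = 0.0107), Folr2 7.22 and 6.03 in C57BLKS/J and 8.21 and 7.81 in C57BL/6J (-1.38 ± 0.37, 0.014), and Vsig4 9.05 and 8.47 in C57BLKS/J and 9.99 and 9.77 in C57BL/6J (-1.12 ± 0.30, 0.0166). C57BLKS/J mouse 2 was the lowest of the 4 mice for each of these 3 genes. Without it, or without C57BL/6J mouse 1, they were not called, and Vsig4 was also not called without C57BL/6J mouse 2. With 1 mouse left out the smallest falls were -1.07 for Clec4f, -0.79 for Folr2 and -0.83 for Vsig4.

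In bulk liver, fewer cells of a type and less RNA per cell cannot be told apart. Over all 30 macrophage markers the summed linear signal, in which bright genes weigh most, was 35891 and 31811 in the C57BLKS/J mice and 23012 and 24853 in the C57BL/6J mice. The mean score of the list was 0.28 and -0.09 in the C57BLKS/J mice and -0.23 and -0.18 in the C57BL/6J mice. By this score C57BLKS/J had rank 33 and C57BL/6J rank 66 of the 87 strains. Of the 30 differences 23 were above 0, and the marker Lyz1 was below the median probe set in both strains. With 1 mouse left out, 0, 0, 0 and 1 markers were higher and 3, 0, 0 and 2 lower. Of 24 acute phase genes 3 rose and 0 fell (median 0.31), namely Cd14, Lcn2 (lipocalin-2, 11.80 and 11.68 in C57BLKS/J, 10.14 and 10.70 in C57BL/6J; 1.33 ± 0.41, adjusted p = 0.0399) and Il1rn, the interleukin-1 receptor antagonist (1.13, 0.0499), and 0 remained called without any 1 mouse. Ccl3, a macrophage chemokine and the only called gene of 23 that the study named, rose by 1.33 ± 0.39 (adjusted p = 0.0324) and kept its call only without C57BLKS/J mouse 2. Mmp8 rose (0.85, 0.0405) among 11 neutrophil markers and Cd28 (0.71, 0.0217) among 19 T and NK cell markers, single calls that set neither list apart from the 5.95% of all genes called, and 0 of 12 B and plasma cell markers were called, although C57BLKS/J had rank 1 of 87 for the mean score of that list and C57BL/6J rank 27. The part of these cell types in the results was not tested.

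A minority of the markers of bile duct epithelium and of matrix-producing cells were called, where 5.95% of all genes were called. Of 13 cholangiocyte markers 3 rose and 0 fell, and the median of 0.82 was the highest of the lists. The called ones were Anxa2 (annexin A2, 10.85 in both C57BLKS/J mice, 9.67 and 10.01 in C57BL/6J, difference 1.02 ± 0.31, adjusted p = 0.0369), Krt8 (11.44 and 11.53 in C57BLKS/J, 10.61 and 10.72 in C57BL/6J, difference 0.82 ± 0.20, 0.00882) and Krt18 (0.61, 0.0233). The keratins Krt8 and Krt18 are expressed by hepatocytes too. The more specific markers Epcam (1.09, 0.408), Krt7 (0.90, 0.163) and Krt19 (0.75, 0.519) did not pass, and the summed signal of the list was 9421 and 9546 in C57BLKS/J and 5431 and 5950 in C57BL/6J. Of 25 stellate cell and matrix markers 2 rose and 1 fell (median 0.44; summed signal 15388 and 14201 in C57BLKS/J, 11399 and 10844 in C57BL/6J). Timp1, an inhibitor of matrix proteases, was 8.09 and 7.70 in C57BLKS/J and 5.81 and 6.69 in C57BL/6J (1.64 ± 0.48, adjusted p = 0.0305), Vim rose by 0.80 (0.0242), and Lrat, the retinol-esterifying enzyme of quiescent stellate cells, fell (7.83 and 7.77 in C57BLKS/J, 8.88 and 8.50 in C57BL/6J; -0.89 ± 0.22, 0.0082). For the mean score of the matrix list C57BLKS/J had rank 2 and C57BL/6J rank 55. With 1 mouse left out, 0, 0, 0 and 1 cholangiocyte markers were higher, and 0, 1, 0 and 1 matrix markers. The part of these cells in the results was not tested.

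The liver label was checked against cell type markers. Of 13 hepatocyte markers 0 were called (median -0.10), none was below the median probe set in both strains, and the summed signal was 71576 and 72418 in C57BLKS/J and 76565 and 73684 in C57BL/6J. Of 17 pancreatic acinar markers 16 and of 15 muscle markers 14 were below the median probe set in both strains, and 0 of either were called, so tissue admixture was not seen at this sensitivity. Of 17 endothelial markers 0 were called (median -0.28). Klf1 fell (-1.05, adjusted p = 0.0269) among 8 erythroid markers, a single call that does not set the list apart from the 5.95% of all genes called. Of 9 adipocyte markers Fabp4 rose (8.72 and 9.10 in C57BLKS/J, 7.70 and 8.14 in C57BL/6J; 0.99 ± 0.26, adjusted p = 0.0136) and Car3 fell (11.88 and 11.86 in C57BLKS/J, 12.71 and 12.57 in C57BL/6J; -0.77 ± 0.13, adjusted p = 2.78e-05), while the defining Adipoq and Lep were below the median probe set in both strains.

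A few genes of amino acid and methyl group metabolism and of the coagulation system fell, and most members of these lists did not pass. The share of all genes called lower was 2.86%. Of 17 arginine and urea cycle genes 4 fell and 0 rose (median -0.05): Oat, which makes ornithine into glutamate semialdehyde (11.50 and 11.56 in C57BLKS/J, 12.31 and 12.20 in C57BL/6J; -0.73 ± 0.20, adjusted p = 0.022), Gamt of creatine synthesis (-0.62, 0.0305), the aspartate-glutamate carrier Slc25a13 (-0.55, 0.0473) and Otc (-0.34, 0.046). Of 19 choline and trimethylamine genes 5 fell (median -0.17): Fmo4 (-0.89, 0.0348), Chpt1 (-0.68, 0.0234), Sardh (-0.67, 0.0258), Pemt, which methylates phosphatidylethanolamine to phosphatidylcholine (8.93 and 9.04 in C57BLKS/J, 9.51 and 9.47 in C57BL/6J; -0.50 ± 0.13, 0.0119), and Fmo1 (-0.39, 0.0373). For Pemt and Chpt1 C57BLKS/J had rank 86 of 87. Of 30 complement and coagulation genes 5 fell (median -0.10), among them Masp2 (-0.58, 0.0347), Mbl2 (-0.53, 0.013), F13b (-0.42, 0.0284), C8g (-0.41, 0.0129) and F12 (-0.32, 0.0425). Leaving out 1 mouse left at most 1 gene called in each of these 3 lists.

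Of 31 antioxidant genes Srxn1, the sulfiredoxin that reactivates peroxiredoxins, rose (9.41 and 9.37 in C57BLKS/J, 7.78 and 8.15 in C57BL/6J; 1.43 ± 0.43, adjusted p = 0.0348), and Aox3 (-0.76, 0.00127) and Idh1 (-0.33, 0.0471) fell, while Hmox1 (0.56, 0.652) and Gsr (0.47, 0.0894) did not pass. The clock genes Per1 (6.83 and 6.99 in C57BLKS/J, 5.02 and 5.44 in C57BL/6J; 1.68 ± 0.47, adjusted p = 0.0215) and Noct (1.38, 0.0481) rose among 19 clock genes, whereas Arntl (-0.44) and Dbp (-0.48) did not pass, and the hour at which each mouse was killed is not in the labels. The few calls among the 31 antioxidant and 19 clock genes do not set those lists apart from the 5.95% of all genes called. Neither do the single calls in each of 3 further lists. Gadd45b (1.23, 0.0187) was called among 18 immediate early genes, Hspa1b (1.14, 0.0344) among 10 heat shock genes and the cell cycle inhibitor Cdkn1a (7.37 and 8.20 in C57BLKS/J, 5.60 and 6.53 in C57BL/6J; 1.72 ± 0.47, 0.0166) among 28 cell cycle genes. No gene of the unfolded protein response (0 of 26, median 0.25, 24 above C57BL/6J), of the respiratory chain (0 of 35, median -0.18, 3 above C57BL/6J) or of the Ifi200 family (0 of 6) was called, although the differences within the first 2 of these lists were mostly of 1 sign. Srxn1, Per1, Noct, Gadd45b and Hspa1b each lost their call without any 1 of the 4 mice, and Cdkn1a without C57BLKS/J mouse 2 or C57BL/6J mouse 1.

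**Figure D3:**
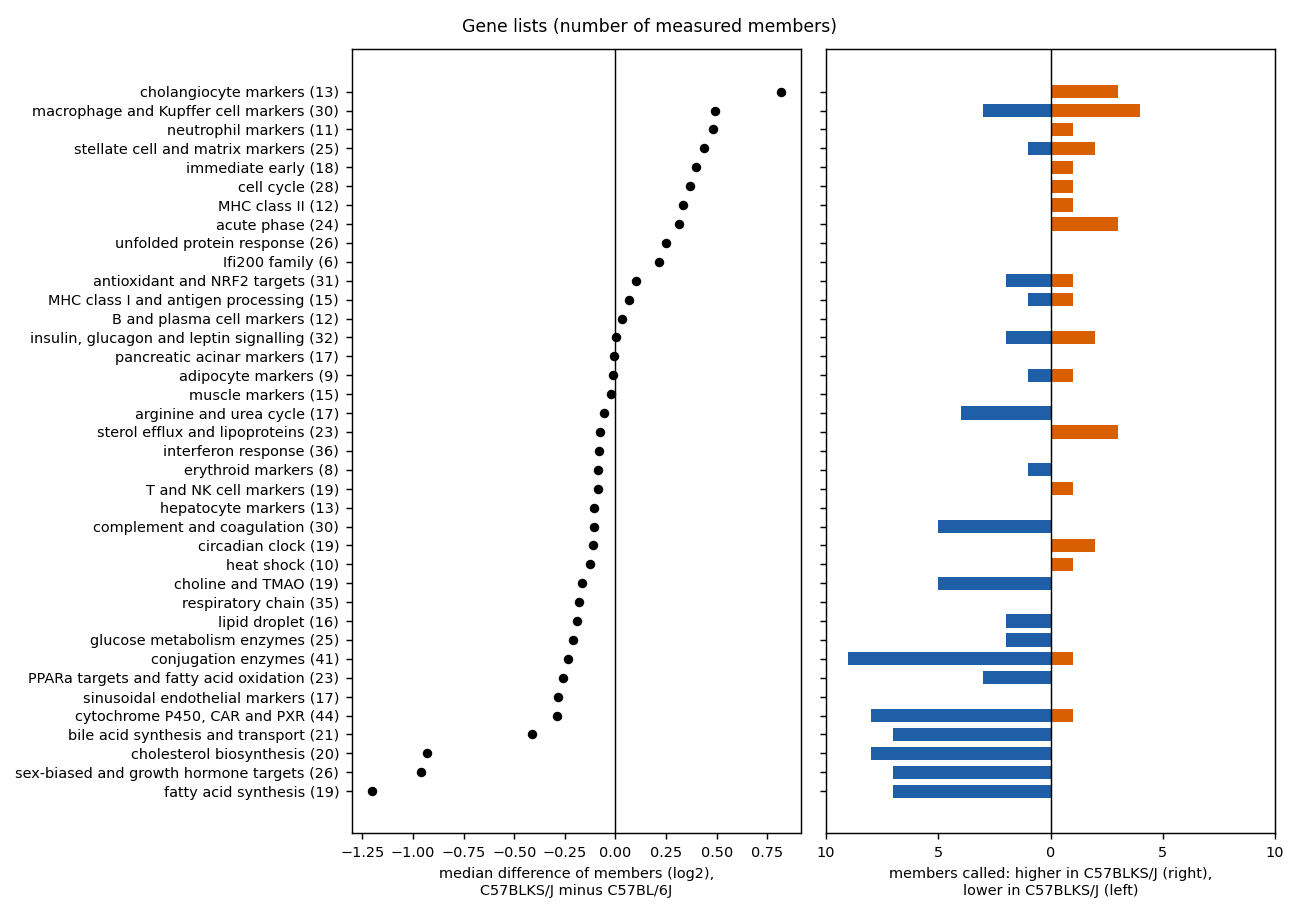
Median difference of the measured members (left, log2, C57BLKS/J minus C57BL/6J) and number of members called higher (right bars) or lower (left bars) in C57BLKS/J for 38 gene lists, with the number of measured members in brackets. Cholangiocyte markers have the highest median (0.82) and fatty acid synthesis the lowest (-1.20). Calls in cholesterol biosynthesis (8), bile acid (7) and sex-biased genes (7) are all lower. Of all genes, 2.86% were called lower and 3.09% higher.

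**Figure D4:**
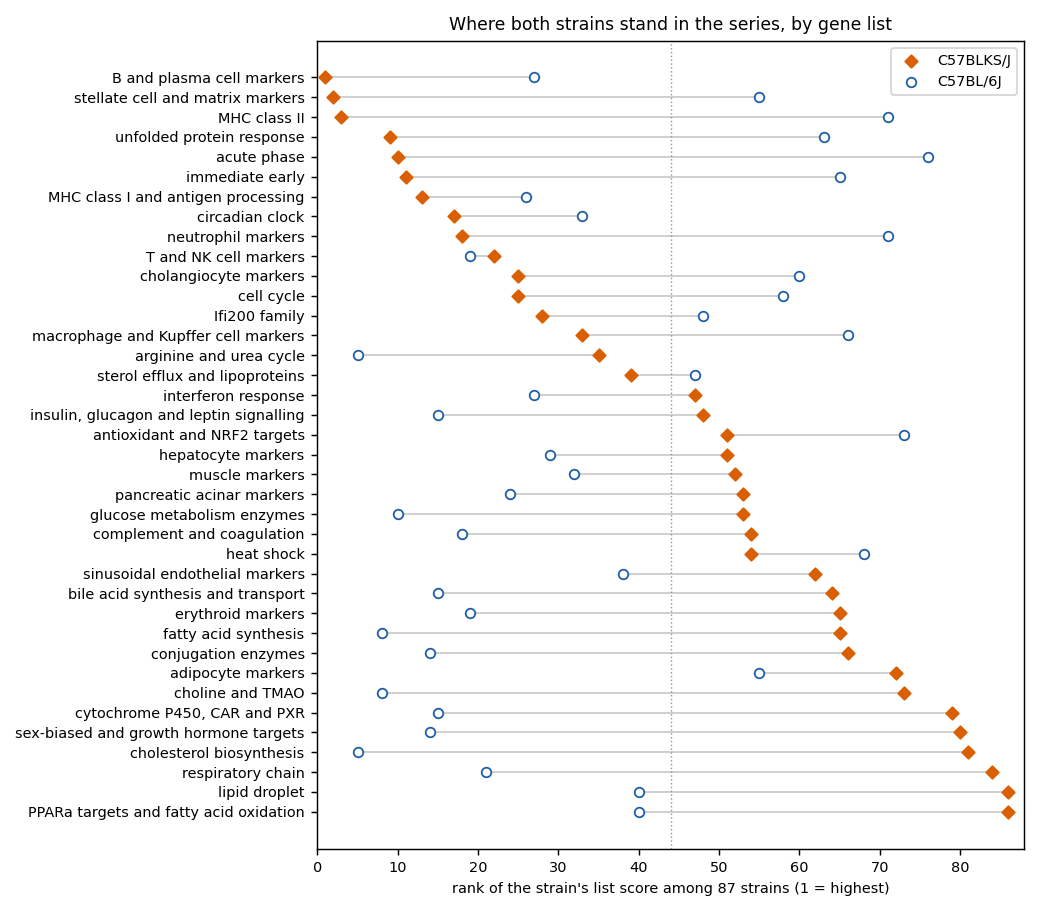
Rank of each strain's mean list score among the 87 maternal strains with 2 or more mice (1 is highest), with diamonds for C57BLKS/J, open circles for C57BL/6J and a dotted line at the middle rank of 44. The strains stand at opposite ends for cholesterol biosynthesis (81 for C57BLKS/J, 5 for C57BL/6J). For MHC class II the ranks are 3 for C57BLKS/J and 71 for C57BL/6J. That score is a mean over 12 genes, of which only H2-Ea, with a difference of 7.88, was called.

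Where the 2 strains stand among all 87 strains with 2 or more mice was then examined. Among the 1018 called genes C57BLKS/J was one of the 8 highest or 8 lowest strains in 679 (66.7%) and C57BL/6J in 375 (36.8%), against 24.2% for C57BLKS/J and 17.0% for C57BL/6J over all genes; choosing genes by this contrast favours extreme strains, so these shares are a description. C57BLKS/J had the highest mean of all strains in 88 called genes and the lowest in 89, and C57BL/6J the highest in 18 and the lowest in 20. Over all genes the mean profile of C57BLKS/J was nearest to BXH19/TyJ (RMS 0.21) and BXD31/TyJ (0.22). C57BL/6J stood at rank 65 of 86 by nearness to C57BLKS/J (0.35) and DBA/2J at rank 66 (0.35).

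DBA/2J (3 mice) and the BXD strains, recombinant inbred mosaics of C57BL/6J and DBA/2J, give a view on DBA/2J alleles. Against the same C57BL/6J mice, which the 2 contrasts share, 359 genes (2.1%) were called in DBA/2J. Between C57BLKS/J and DBA/2J, a comparison that reuses the C57BLKS/J mice, 1747 genes (10.2%) were called. DBA/2J had 3 mice and each of the other strains 2, so these counts are not directly comparable with that of the main comparison. For H2-Ea the DBA/2J mean was 10.15, and 7.35 above C57BL/6J (adjusted p = 2.39e-21), and for Crym 6.58, or 2.64 above (adjusted p = 5.33e-10). The difference between C57BLKS/J and DBA/2J did not pass in either gene (0.53, adjusted p = 0.709 for H2-Ea and 0.44, adjusted p = 0.519 for Crym). The BXD means of H2-Ea were nearer to C57BLKS/J in 21 strains and nearer to C57BL/6J in 13. Of the 40 genes with the largest rises and falls in C57BLKS/J, 4 passed in DBA/2J against C57BL/6J, namely H2-Ea, Crym, Slpi (2.55 in DBA/2J, adjusted p = 9.68e-04; 1.87 in C57BLKS/J) and 1810008I18Rik (-1.62 in DBA/2J, adjusted p = 0.00886; -2.01 in C57BLKS/J). Among the other 36, DBA/2J differed from C57BL/6J by -2.45 for Cyp3a41a, 1.17 for Syngr1, 0.31 for Ccn2 and -0.11 for Zbtb16, none of which passed.

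A test that used none of the 4 mice was the F-test across 31 BXD strains (80 mice), which called 7213 of 17097 genes (42.2%). Of the 1018 genes called between C57BLKS/J and C57BL/6J, 950 (93.3%) were called in it. The F-test does not ask for the same direction or the same allele. Its 80 mice are also among the 211 mice that set the spread of the comparison of C57BLKS/J with C57BL/6J. Genes with a small spread within strains are therefore favoured in both, and the share of 93.3% is a description. The C57BLKS/J mean lay outside the range of the 34 BXD strain means in 452 of the 1018 called genes (44.4%), above it in 231 and below it in 221, against 12.0% of all genes, a share that the choice of genes by their difference from C57BL/6J favours; the C57BL/6J mean lay outside in 78 called genes (7.66%) and 4.29% of all genes.

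Several genes with the smallest p-values, chosen after their values were seen, showed C57BLKS/J apart from every BXD strain. Zdhhc6, a palmitoyltransferase, was 10.79 and 10.80 in C57BLKS/J and 10.21 and 10.15 in C57BL/6J (0.61 ± 0.09, adjusted p = 6.19e-07), where the BXD means ran from 10.05 to 10.38. Agtr1a, the angiotensin II receptor, was 8.22 and 8.08 in C57BLKS/J and 9.69 and 9.52 in C57BL/6J (-1.45 ± 0.17, adjusted p = 3.95e-11), with BXD means of 8.98 to 9.95. C57BLKS/J was the highest of the 87 strains for Zdhhc6 and the lowest for Agtr1a. Col4a3, a chain of basement membrane collagen, was 4.98 and 4.47 in C57BLKS/J and 2.98 and 2.74 in C57BL/6J (1.86 ± 0.27, adjusted p = 6.19e-07), with BXD means of 2.59 to 3.16. Rnf186, a ubiquitin ligase, was 4.95 and 5.29 in C57BLKS/J and 7.13 and 7.0 in C57BL/6J (-1.94 ± 0.29, adjusted p = 1.34e-06), with BXD means of 5.99 to 7.14. DBA/2J differed from C57BL/6J by 0.10 in Zdhhc6, -0.43 in Agtr1a, 0.05 in Col4a3 and -0.19 in Rnf186, and passed in none of them. Other genes with small p-values passed in DBA/2J as well. Cap1, an actin regulator, was 9.32 and 9.19 in C57BLKS/J and 7.84 and 8.09 in C57BL/6J (1.29 ± 0.14, adjusted p = 8.18e-13), and DBA/2J was 0.87 above C57BL/6J (adjusted p = 1.33e-07), but C57BLKS/J was also 0.42 above DBA/2J (adjusted p = 0.0195) and above the whole BXD range of 7.78 to 9.08. Ocel1 (1.12 in C57BLKS/J, 1.26 in DBA/2J), Tmem82 (0.93 and 1.11), Abca3, a lipid transporter (0.78 and 0.87), and 2610507I01Rik (-1.49 and -1.15) also passed in both strains against C57BL/6J. These genes, together with Wdfy1, Thumpd1, Ostm1 and 4833420G17Rik, kept their calls without any 1 of the 4 mice.

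**Figure D5:**
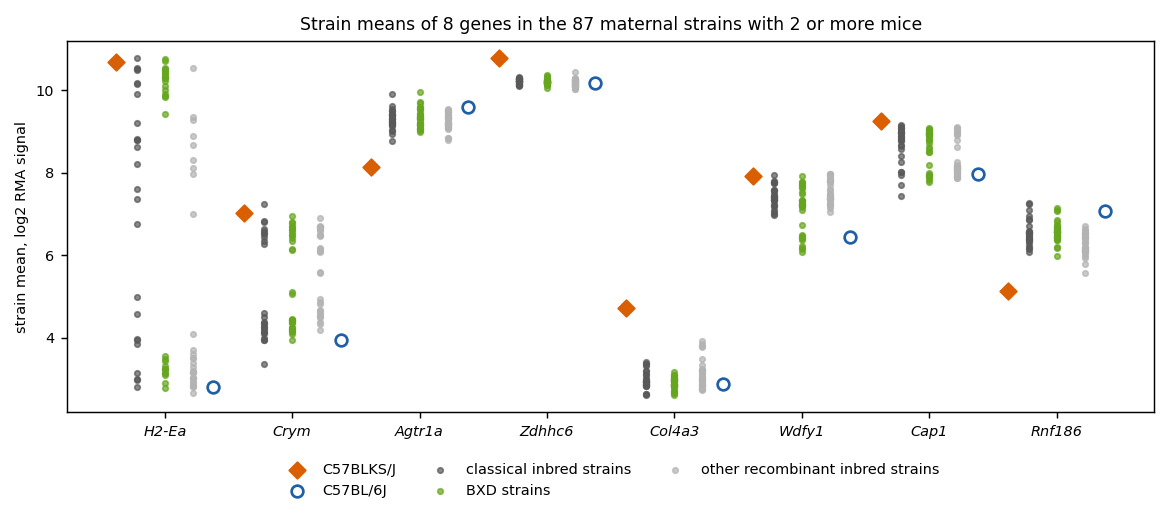
Strain means (vertical axes, log2 RMA signal) for 8 genes in each of the 87 strains, with a diamond for C57BLKS/J to the left, an open circle for C57BL/6J to the right and points for the classical inbred, BXD and other recombinant inbred strains between them. For Zdhhc6, Col4a3 and Cap1 C57BLKS/J is the highest strain and for Agtr1a and Rnf186 the lowest, whereas for H2-Ea and Crym it lies near the top of a wide range and C57BL/6J near the bottom.

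The called genes were spread over the genome, from 3.86% of the measured genes on chromosome X to 7.26% on chromosome 15. Among windows of 50 consecutive measured genes, ordered by the RefSeq records of GRCm38.p6, 7 neighbourhoods reached 20% called, against 5.95% of all genes. Windows were picked by these same calls, merged, and trimmed to their first and last called gene. This trimming raises the shares below, which are a description. On chromosome 7, 12 of 53 genes between Dkk3 and Crym were called, 9 higher and 3 lower. Crym (3.08), the channel-like Tmc7 (1.59), Dkk3, a secreted modulator of Wnt signalling (1.14), Gprc5b (1.04), Gde1 (0.78), Thumpd1 (0.75), the transcription factor Tead1 (0.63), Smg1 of RNA surveillance (0.50) and the ribosomal protein Rps13 (0.31) were higher, and Cyp2r1 (-1.64), Anks4b (-1.16) and Acsm1, an acyl-CoA synthetase (-0.52), were lower. Anks4b, an ankyrin-repeat protein, was 7.0 and 6.74 in C57BLKS/J and 8.12 and 7.93 in C57BL/6J (-1.16 ± 0.20, adjusted p = 7.15e-05), with DBA/2J 0.02 from C57BL/6J, whereas Thumpd1 was 0.61 higher in DBA/2J than in C57BL/6J (adjusted p = 1.32e-04). On chromosome 1, 11 of 36 genes between Hibch and Gm15834 were called and all 11 were lower, Aox3 among them. The other 5 neighbourhoods, on chromosomes 3, 8, 10, 13 and 17, held 10 called genes each, among them Elovl6 (3), Nat1 and Lpl (8), Ccn2 (10), Agtr1a and Eci3 (13) and Abca3 and Igfals (17).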

How the data were processed

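Liver RNA of each of 220 female mice was measured on 1 array of the Affymetrix HT MG-430 PM type. The deposited log2 values were made by the authors with GCOS and robust multi-array averaging (RMA), which subtracts background, brings all arrays to the same quantiles and combines the probes of each probe set into 1 value; their versions are not stated in the labels. The values ran from 1.90 to 13.94, with array medians of 3.43 to 3.56. Arrays give no read depth, so the number of mice limits the precision.

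Maternal strain was taken from the labels. Of 45141 rows, 104 array controls were left out. Of the other 45037 probe sets, 28898 had 1 gene symbol in the platform annotation, 551 had several and 15588 had none. A gene was represented by its probe set with the highest mean. A model with 1 mean per strain was fitted to 211 mice, from the 87 strains that had at least 2 (R 4.3.3, limma 3.58.1), with 124 residual degrees of freedom. The p-values are two-sided and were adjusted by Benjamini-Hochberg over all probe sets, and a gene was called at an adjusted p under 0.05. The labels do not say whether the 2 mice of a strain shared a litter, so p-values measure the spread between mice of a strain as sampled here. A moderated F-test was fitted to 80 mice of 31 BXD strains. The scripts were tested on simulated data.

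Gene lists were described by their called members and median, without a test. The text names the 20 largest rises and falls, up to 6 called members of each list by size (for 4 lists also up to 4 that were not called), the called genes of the densest neighbourhood, and Lepr, Nnt and Apoe; other genes were chosen after their values were seen. The genes and lists were chosen with earlier results of these data known. Alternatives changed the mice in the fit, the normalization, the filter on dim probe sets, the variance prior, the thresholds, the probe set per gene and the window, and left out each mouse in turn, in which case the lone mouse was assumed to vary like other strains. Which probes overlie sequence differences between the strains was not analysed here, and close paralogs may share signal.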

Additional observations from a re-analysis of the deposited data

How the results depend on the processing

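Of the 1018 called genes, 1016 kept their direction with the mean of all probe sets of a gene and 996 with the most variable probe set; most other alternatives leave the strain means as they are or cannot turn a gene whose mice do not overlap. At an adjusted p under 0.01, 605 probe sets were called (274 higher and 331 lower) and 339 genes (153 and 186). With a difference of at least 1 as well as an adjusted p under 0.05 there were 453 probe sets (243 and 210) and 250 genes (137 and 113). Leaving out 1 mouse gave 192 to 882 probe sets (76 to 416 higher and 116 to 466 lower) and 100 to 480 genes (38 to 235 higher and 62 to 245 lower), the fewest without C57BL/6J mouse 1. Of 143 named called genes 22 were called in all 4 of these fits and 62 in none. Other alternatives called 821 to 1393 genes; with the 4 mice alone 998 were called, of which 614 were among the 1018. Windows of 30 genes gave 24 neighbourhoods and windows of 100 genes gave 0, the densest holding 15 called genes; the cause was not tested. The F-test across BXD strains called 6196 genes with strains of 3 or more mice and 5576 at an adjusted p under 0.01. No paired analysis was possible because the replicate numbers were given in accession order and pair no mice across strains.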
